A study of Mus musculus with 96 samples.

Results

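The genes followed here along the mouse nephron belong to mineral hormone signalling: the klotho gene Kl, the fibroblast growth factor receptor gene Fgfr1, the parathyroid hormone receptor gene Pth1r, the vitamin D genes Cyp27b1, Cyp24a1 and Vdr, and the calcium-sensing receptor gene Casr. They were found by gene symbol and are 7 of the 54532 genes in the table. The data were RNA-seq values, in TPM, a level scaled for transcript length and library total, from glomeruli and 14 tubule segments dissected by hand from kidneys of male C57BL/6 mice aged 6 to 8 weeks. The animals ate normal chow with free access to water. The labels name no treatment, genotype or other diet, so each comparison was between parts of the nephron. Proximal tubules came in 3 stretches: PTS1 is where the convoluted part begins, PTS2 is straight tubule of the cortical rays, and PTS3 is the end of the straight tubule in the outer stripe. Descending thin limbs were those of short loops (DTL1) and those of long loops in the outer (DTL2) and inner medulla (DTL3), followed by ATL, the thin ascending limb, and by the thick ascending limb in medulla (MTAL) and cortex (CTAL). Beyond these lay the DCT (distal convoluted tubule), the CNT (connecting tubule) and the collecting duct, cut as CCD in the cortex, OMCD in the outer and IMCD in the inner medulla. PTS2, CTAL and CCD had 5 mice each, ATL and OMCD 4, and the other 10 groups 3, 53 mice in all. The 93 samples were pieces of these mice, and pieces of 1 mouse and segment were averaged first. Whether a segment holds fewer cells of a type or less RNA per cell cannot be told apart in such bulk samples.

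Phosphate and calcium balance is set in the kidney by a few hormones. Fibroblast growth factor 23 from bone acts through an FGF receptor together with alpha-klotho, and parathyroid hormone acts through a G protein-coupled receptor. Both lower phosphate reabsorption in the proximal tubule, and they move renal production of active vitamin D in opposite directions. Cyp27b1 encodes the 1-alpha-hydroxylase that makes calcitriol, Cyp24a1 the 24-hydroxylase that inactivates it, and Vdr the nuclear receptor that calcitriol binds. The calcium-sensing receptor reads blood calcium at the basolateral side of the thick ascending limb.

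The promoters of Kl and Vdr are shown because both genes peaked in the DCT, and that of Cyp27b1 because its transcript was concentrated in PTS1. Each run is 300 bases, from 250 before to 50 after the annotated start, from RefSeq on GRCm38.p6, printed 5′ to 3′ on the gene's strand. Capitals mark every match, on either strand, to any of 5 motifs: the GC box GGGCGG, the TATA box TATAAA, the CCAAT box CCAAT, the nuclear receptor half-site AGGTCA and the cyclic AMP half-site TGACG. Of 32851 promoters of this length, 35.7% held the GC box, 13.6% the TATA box, 37.4% the CCAAT box, 16.3% the nuclear receptor half-site and 20.8% the cyclic AMP half-site. The Kl promoter lies at chr5:150952357-150952656 on the plus strand, the Vdr promoter at chr15:97908247-97908546 on the minus strand and the Cyp27b1 promoter at chr10:127047996-127048295 on the plus strand.
Kl: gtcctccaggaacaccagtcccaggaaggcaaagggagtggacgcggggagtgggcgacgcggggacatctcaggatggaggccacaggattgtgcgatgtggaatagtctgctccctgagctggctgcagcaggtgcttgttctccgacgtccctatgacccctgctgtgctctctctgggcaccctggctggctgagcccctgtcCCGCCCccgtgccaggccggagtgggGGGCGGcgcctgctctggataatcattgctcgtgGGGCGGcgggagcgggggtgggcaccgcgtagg
Vdr: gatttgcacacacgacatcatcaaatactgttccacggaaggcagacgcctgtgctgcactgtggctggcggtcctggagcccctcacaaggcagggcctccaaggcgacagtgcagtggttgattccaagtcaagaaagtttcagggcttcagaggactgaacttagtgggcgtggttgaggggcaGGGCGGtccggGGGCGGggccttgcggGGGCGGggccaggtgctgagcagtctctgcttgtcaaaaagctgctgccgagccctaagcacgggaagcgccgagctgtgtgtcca
Cyp27b1: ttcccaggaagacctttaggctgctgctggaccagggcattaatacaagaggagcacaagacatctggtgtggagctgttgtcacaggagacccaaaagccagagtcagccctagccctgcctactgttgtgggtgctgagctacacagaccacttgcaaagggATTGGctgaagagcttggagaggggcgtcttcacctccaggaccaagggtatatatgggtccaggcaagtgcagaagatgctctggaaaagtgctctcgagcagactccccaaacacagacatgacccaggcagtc
Kl and Vdr each carried 3 GC boxes and none of the other 4 motifs in this window, and Cyp27b1 carried 1 CCAAT box. No matches overlapped. GC content was 67.3% for Kl, 61.3% for Vdr and 54.3% for Cyp27b1, against a median of 52.7% over all promoters. The Casr window, with a GC content of 49.7%, held none of the 5 motifs, and Pth1r had 3 annotated starts, which a value per gene does not separate. Of the 7 genes, 5 had an entry in the promoter table. A match is a description of the letters only.

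Kl was highest in the DCT and far lower in most of the nephron. The 3 DCT mice were at 1749, 2252 and 2267 TPM, and the 3 CNT mice at 579, 527 and 775 TPM. Every DCT mouse was above every CNT mouse, and every CNT mouse was above every mouse of the other 13 groups. Mean levels were 2089 ± 295 TPM in the DCT (SD, n = 3), 627 ± 131 in the CNT (n = 3), 232 ± 16.9 in the CTAL (n = 5), 193 ± 24.5 in PTS2 (n = 5), 135 ± 12.5 in PTS1 (n = 3) and 123 ± 24.9 in the CCD (n = 5). The CTAL, PTS2, PTS1 and CCD followed each other in the order without a step that passed the test. Below them came OMCD, DTL2 and MTAL, with means from 26.7 to 36.3 TPM, then DTL1 at 14.5, PTS3 at 9.03, the glomerulus at 2.82 and DTL3 at 2.35 TPM, with ATL mice at 0.11 to 2.69 TPM. In the IMCD the 3 mice were at 0.08, 0.19 and 0.0667 TPM.

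Tested on log2(TPM + 1) with limma, with p-values adjusted by Benjamini-Hochberg over the 33793 genes that had at least 1 TPM in at least 3 mice, Kl exceeded the next group in the DCT by 1.76 log2 units (SE 0.36). A gene was called highest in a group if it exceeded each of the other 14 groups at adjusted p under 0.05 and by at least 1 log2 unit. By this rule 6 of the 7 genes had 1 highest group. They were Kl and Vdr in the DCT, where 0.210% of all genes tested were called, Cyp27b1 and Cyp24a1 in PTS1 (0.544%), Casr in the CTAL (0.0651%) and Fgfr1 in the glomerulus (3.22%). For Kl the adjusted p was 0.00353, and with a pseudocount of 0.1 in place of 1 it was 0.605 at the same difference of 1.76. All 7 genes also differed among the 15 groups in the moderated F-test, as did 93.9% of all genes tested, so that count says little about them.

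**Figure D1:**
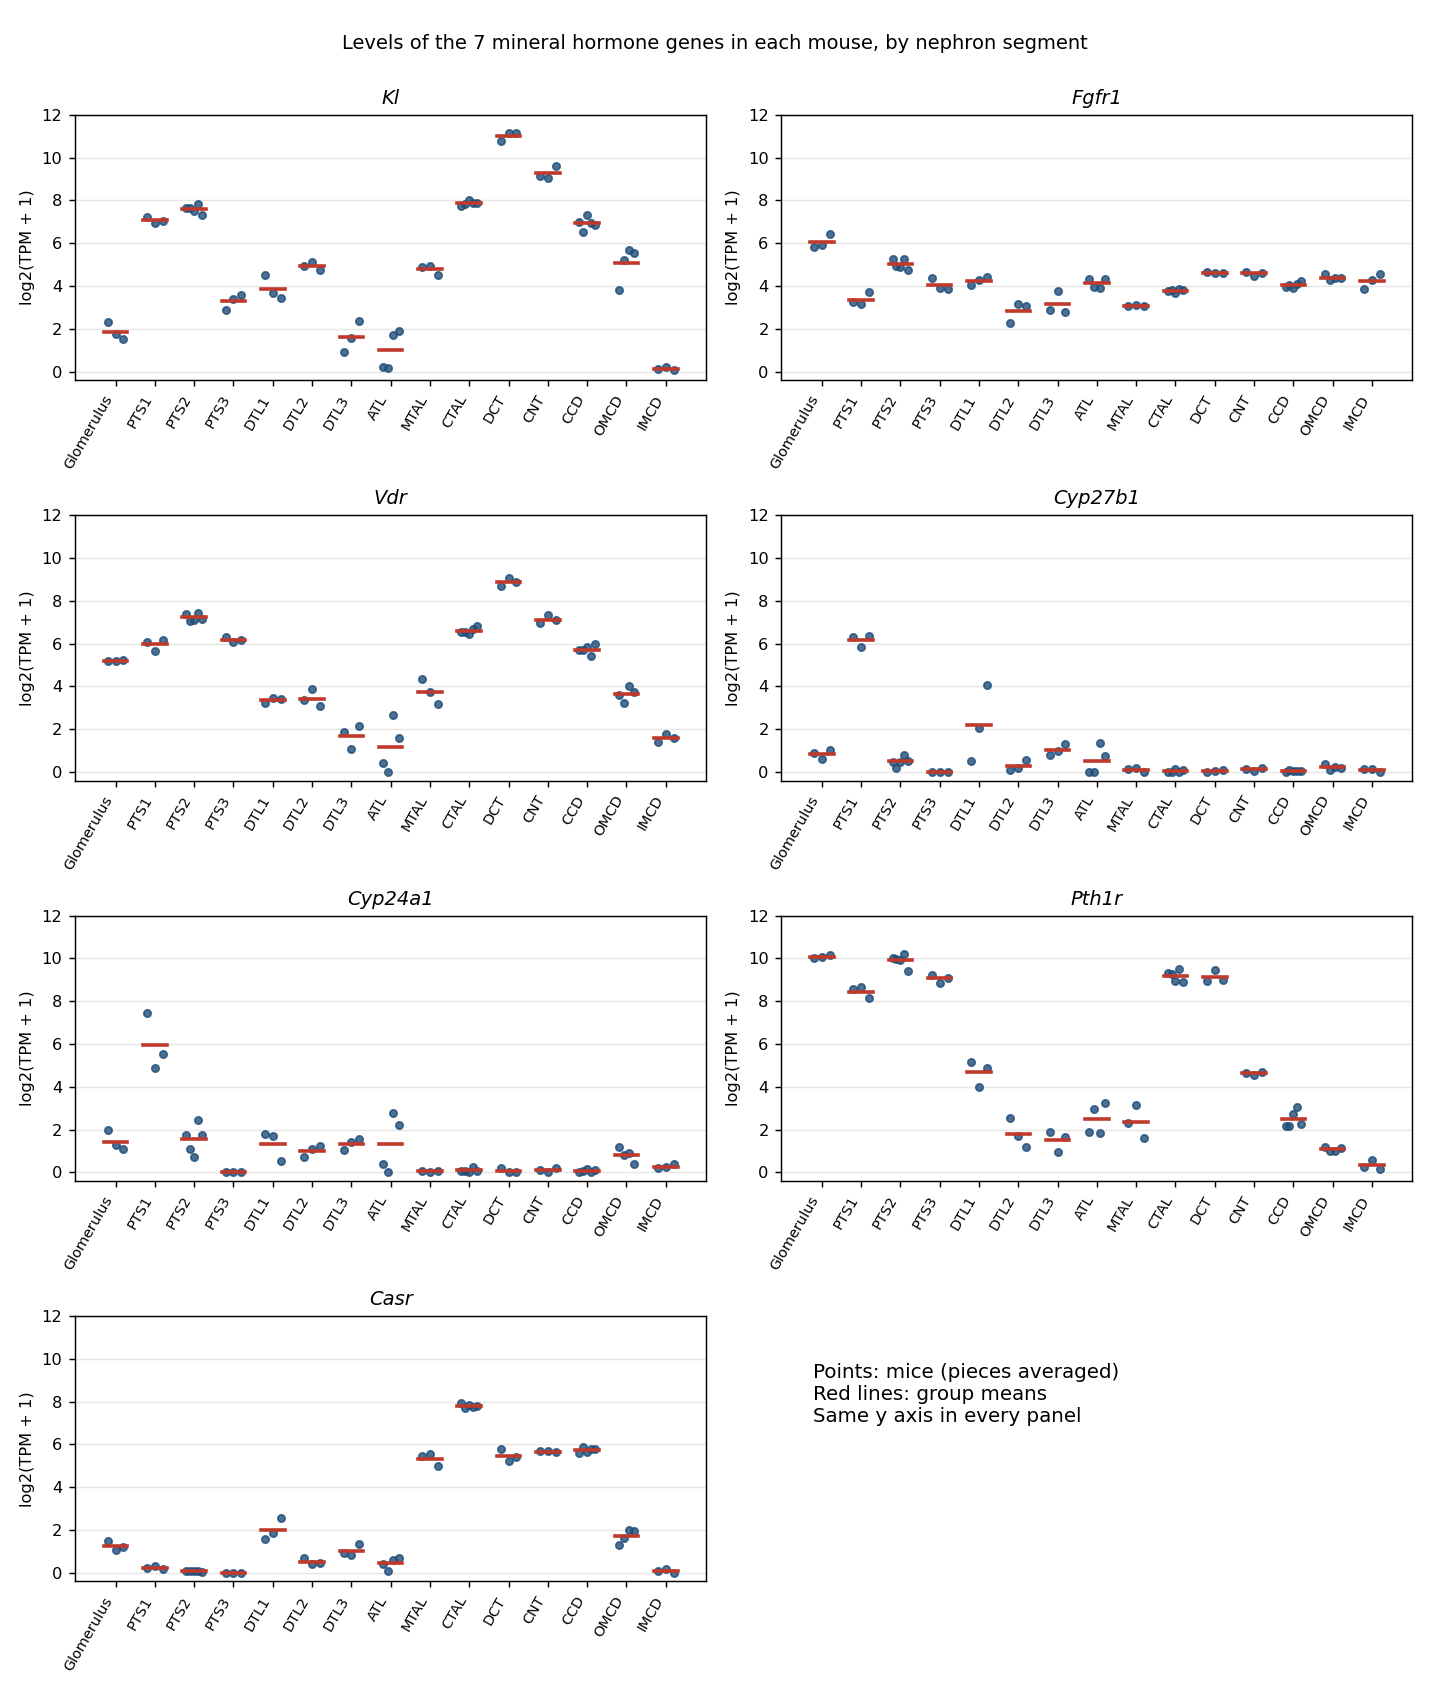
Levels of the 7 genes in each of the 53 mice, as log2(TPM + 1) on the y axis, for the glomerulus and the 14 tubule segments in nephron order on the x axis; points are mice and red lines group means. Kl and Vdr peak in the DCT, Cyp27b1 and Cyp24a1 in PTS1 and Casr in the CTAL, while Pth1r is high in 6 groups and Fgfr1 has the narrowest range.

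The DCT libraries carried the defining marker of that segment, Slc12a3, the thiazide-sensitive sodium chloride cotransporter, at 5892, 5528 and 5925 TPM. The markers used to check the CNT, Calb1, Slc8a1 and Klk1, did not single out the CNT. Their sum was 50032 to 64601 TPM in DCT mice, 7908 to 10899 in CTAL mice and 4821 to 6766 in CNT mice. Slc12a1, the cotransporter of the thick limb, was at 72.3, 19.1 and 1.29 TPM in DCT mice 1, 2 and 3, against a mean of 6135 TPM in the CTAL. Umod, which encodes uromodulin and was the other thick limb marker, was at 2173, 1360 and 1890 TPM in the same mice, against a mean of 36934 TPM in the CTAL. Aqp2, the water channel of the collecting duct, was at 97.6, 152 and 108 TPM, against a mean of 6186 TPM in the CNT. Mouse 1 also held the proximal transcripts Slc34a1 at 158 TPM and Slc5a2 at 36.9 TPM, each at most 3.10 TPM in the other 2 DCT mice. Kl in the DCT was lowest in that mouse. The part of these transcripts in the DCT levels was not tested.

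Steps between neighbouring segments bounded the Kl peak. From MTAL to CTAL, Kl was higher in the CTAL by 3.09 (SE 0.32, adjusted p = 7.86e-10), from CTAL to DCT by a further 3.15 (SE 0.32, adjusted p = 1.24e-10), and from CNT to CCD it was lower in the CCD by 2.33 (SE 0.32, adjusted p = 2.94e-06). These are limma differences on the log2(TPM + 1) scale. The fall went on into the medulla, by 1.87 (SE 0.29) from CCD to OMCD and 4.92 (SE 0.33) from OMCD to IMCD. Of the 4 OMCD mice, mouse 1 stood lowest at 13.3 TPM and the others were at 36.6, 49.9 and 45.2 TPM. Mouse 1 also had 239 odorant and vomeronasal receptor genes at 1 TPM or more, against 82, 117 and 69 in the others. Their part in its Kl level was not tested.

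In the proximal tubule Kl dropped sharply at its last part. PTS1 mice were at 150, 126 and 130 TPM and PTS2 mice at 197, 200, 183, 227 and 160 TPM, whereas PTS3 mice were at 6.60, 9.53 and 10.9 TPM. No PTS2 mouse overlapped with PTS3, and the difference was 4.31 log2 units (SE 0.32, adjusted p = 3.16e-14). The PTS1 and PTS2 mice did not overlap either, but their difference of 0.51 (SE 0.32) missed the threshold, with an adjusted p of 0.343. The proximal phosphate cotransporter Slc34a1, a target of both FGF23 and parathyroid hormone, had the same kind of drop, from 5659 ± 668 TPM in PTS2 (n = 5) to 44.2 ± 9.09 in PTS3 (n = 3). The markers used to check PTS3, Slc7a13 and Slc5a10, had higher means in PTS2 than in PTS3 (2045 against 1502 TPM for Slc7a13), so they did not single out PTS3.

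FGF23 binds klotho in complex with an FGF receptor, so Fgfr1 was set beside its 3 relatives. Fgfr1 had the flattest profile of the 7 genes. Glomeruli were at 56.5, 59.5 and 84.3 TPM and PTS2 at 37.2, 29.7, 29.0, 37.6 and 25.8 TPM, without overlap between the groups. The DCT mice were at 24.4, 23.6 and 23.3 TPM and the CNT mice at 24.6, 21.3 and 23.4 TPM, which overlapped and did not differ beyond their spread (difference 0.04, SE 0.21). The lowest means were 7.46 ± 0.0801 TPM in the MTAL and 6.65 ± 2.39 in DTL2 (n = 3 each). Only 1 of the 14 steps between groups next to each other in the order passed for Fgfr1, that from glomerulus to PTS2.

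That step was also the least stable of the 6 highest-group calls. The glomerulus exceeded PTS2 by 1.04 log2 units (SE 0.19, adjusted p = 4.53e-05), just over the limit of 1. It was 0.86 without glomerulus mouse 3 and 0.96 without PTS2 mouse 5, and after each mouse was rescaled by the median ratio of genes it turned to -0.16. With quantile normalization it was 0.30, with a pseudocount of 5 it was 0.95 and with array quality weights 0.93, so the call was lost under each of these. Glomerular libraries differed from most others in their makeup. In them 372 to 840 odorant and vomeronasal receptor genes, which kidney tubules are not expected to use widely, reached 1 TPM, against at most 27 in any mouse of PTS1, PTS2 or PTS3. Endothelial markers summed to 3115 to 3131 TPM there, and stromal and muscle markers to 593 to 859 TPM. Their part in the Fgfr1 level was not tested.

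The receptor mix differed between groups. Fgfr1 made up 28.4 ± 1.82% of the summed Fgfr1 to Fgfr4 TPM in the DCT (n = 3), 27.9 ± 1.80% in PTS2 (n = 5) and 24.2 ± 2.55% in the glomerulus (n = 3), but 3.75 ± 2.25% in DTL3 (n = 3). Fgfr2 held 69.9 ± 1.77% of the sum in the DCT, 85.7 ± 2.24% in the CCD (n = 5) and 93.9 ± 2.28% in DTL3. In PTS1 its share was 1.16 ± 0.387%, and Fgfr3 and Fgfr4 held 41.5 ± 2.97% and 38.0 ± 1.09% there (n = 3). The sum was 84.1 ± 5.26 TPM in the DCT, where Kl was at 2089 TPM, and 234 ± 33.3 TPM in DTL3, where Kl was at 2.35 TPM. Thus the groups with most klotho transcript were not those with most FGF receptor transcript, and over the 15 group means the correlation of Kl with Fgfr1 on the log2 scale was 0.04. These shares and the correlation are descriptions, and the 15 points share the mice and library preparation of each group.

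**Figure D2:**
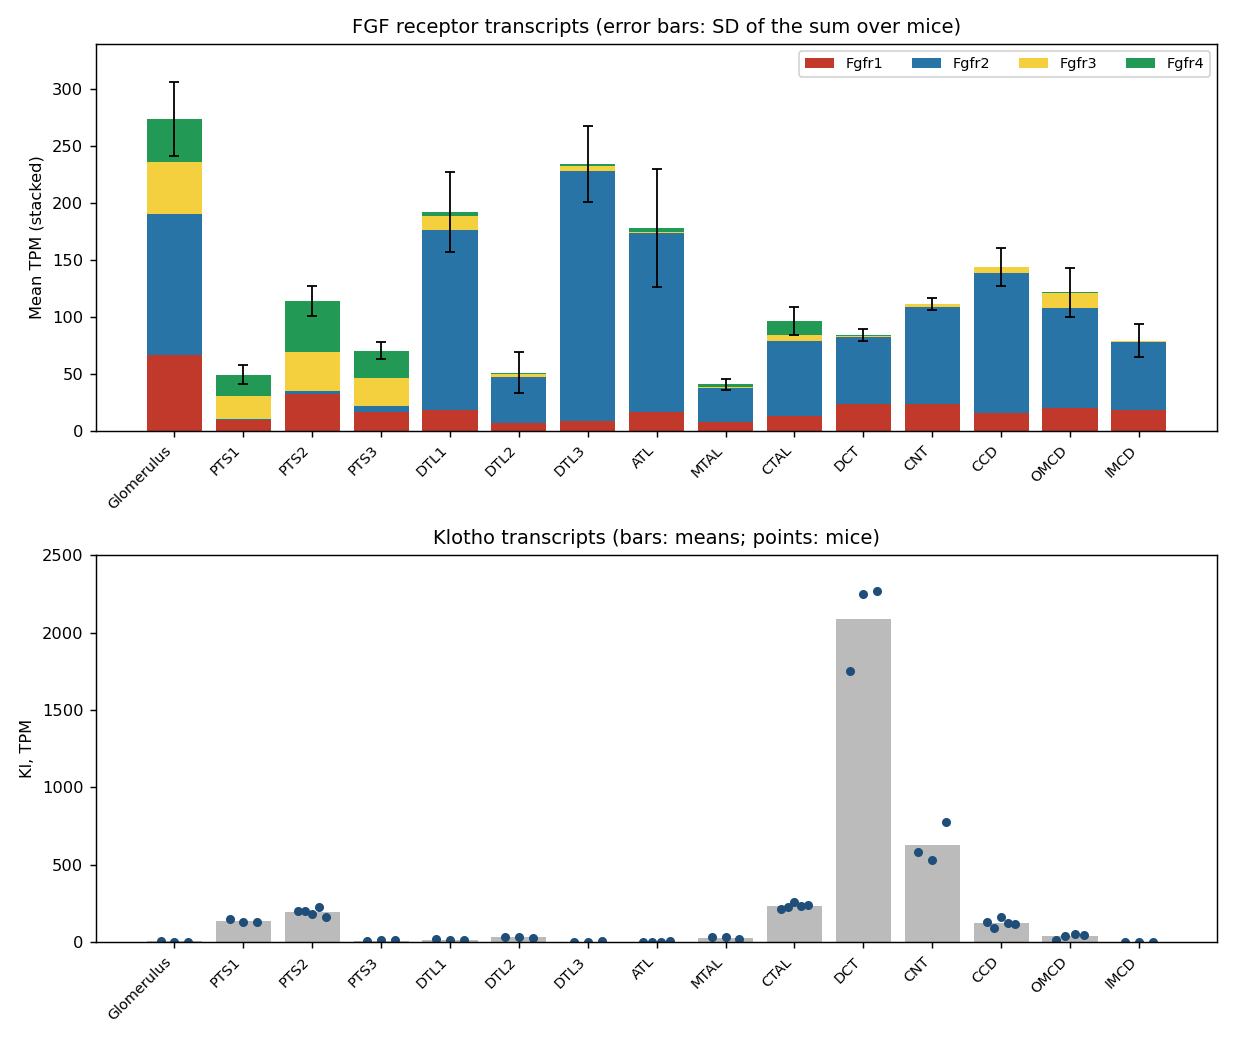
Upper panel, mean TPM of Fgfr1 to Fgfr4 stacked by group, with the SD of the sum over mice; lower panel, Kl in TPM, with bars for group means and points for mice. The receptor sum is 84.1 TPM in the DCT and 234 TPM in DTL3, while Kl is 2089 TPM in the DCT and 2.35 TPM in DTL3.

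Of the 11 genes listed as klotho kin, FGF receptors and FGF23 processing, Klb and Fgf23 did not pass the filter, with a highest mouse at 1.22 and 0.85 TPM. Lctl, a klotho relative, was at 43.2 ± 8.28 TPM in the glomerulus and 19.8 ± 4.07 in PTS1 (n = 3 each), and at 0.153 ± 0.241 in PTS2 (n = 5). Adam10 and Adam17, proteases that can shed klotho from the membrane, were in every group, with DCT means of 19.6 ± 2.78 and 32.5 ± 0.995 TPM. Galnt3, the glycosyltransferase that protects FGF23 from cleavage, had its highest means in DTL3, OMCD and PTS1, at 79.6, 75.0 and 73.5 TPM, and was higher in the DCT than in the CTAL by 2.15 log2 units (SE 0.25, adjusted p = 3.37e-09). None of the 9 tested genes of this list had 1 highest group.

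Pth1r was abundant in 6 groups and low in the rest. Glomeruli were at 1047, 1075 and 1144 TPM, and PTS2 mice at 1044, 1007, 990, 1178 and 685 TPM. The PTS2 mice spanned the glomerular values. CTAL mice ranged from 486 to 723 TPM (median 624), DCT mice were at 495, 701 and 511 TPM, PTS3 mice at 614, 471 and 546 TPM, and PTS1 mice at 375, 410 and 281 TPM. All mice of these 6 groups were at 281 TPM or more, and no mouse of the other 9 groups was above 34.6 TPM. Pth1r was therefore the gene without 1 highest group: the glomerulus exceeded PTS2 by only 0.17 (SE 0.29, adjusted p = 1). Steps that passed in its order were 3 of 14, namely PTS2 over CTAL, PTS1 over DTL1 and CNT over ATL, and CTAL, DCT, PTS3 and PTS1 followed each other without a step that passed.

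Pth1r had sharp edges at the end of the proximal tubule, in the thick limb and after the DCT. In the MTAL the mice were at 4.15, 9.44 and 2.06 TPM, far below every CTAL mouse, a difference of 6.85 log2 units (SE 0.29, adjusted p = 3.03e-22). From CTAL to DCT the difference was 0.07 (SE 0.29, adjusted p = 1), and the mice overlapped. The CNT mice then stood at 24.9, 22.5 and 25.4 TPM, below every DCT mouse by 4.49 log2 units on average (SE 0.32, adjusted p = 7.70e-15). Within the proximal tubule Pth1r was higher in PTS2 than in PTS1 by 1.46 (SE 0.29, adjusted p = 0.000107) with no overlap, while PTS2 over PTS3 was 0.84 (SE 0.29), under the limit of 1. The drop from PTS3 to the thin limbs was 4.39 to DTL1 and 7.26 to DTL2 (SE 0.32 each), the second of which was the largest Pth1r difference among the 15 neighbouring pairs.

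In the glomerulus Pth1r stood beside little proximal transcript: Slc34a1 was at 24.2 ± 8.53 TPM there and at 9502 ± 307 in PTS1 (n = 3 each), and Slc5a2 averaged 8.8 TPM against 2792 in PTS1. The podocyte markers Nphs1 and Podxl averaged 193 and 2391 TPM. Pth1r exceeded PTS1 in the glomerulus by 1.63 (SE 0.32, adjusted p = 2.98e-05), and the groups did not overlap. After median ratio rescaling that difference was 0.36 with an adjusted p of 0.324, and the median of all genes between these groups was 0.96 as deposited and 0.45 rescaled.

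Neither Pth nor Pthlh, the ligand genes, passed the filter, with a highest mouse at 1.62 and 1.70 TPM. Pth2r, the kindred receptor, had a highest group mean of 1.22 ± 1.06 TPM, in DTL1. Gnas, whose product couples the receptor to adenylyl cyclase, was present throughout, from 314 ± 32.7 TPM in PTS1 to 1619 ± 182 in the glomerulus (n = 3 each), and was lower in PTS1 than in PTS2 by 1.14 log2 units (SE 0.12, adjusted p = 3.24e-10). PTS1 thus had the lowest mean of the proximal tubule for both Pth1r and Gnas. For Pth1r, PTS3 over PTS1 did not pass (0.62, SE 0.32, adjusted p = 0.246). Of the 4 genes of this list that passed the filter, none had 1 highest group.

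Cyp27b1 and Cyp24a1, the enzymes that make and break calcitriol, were both highest in PTS1. Cyp27b1 was at 78.4, 58.2 and 80.7 TPM in the 3 PTS1 mice and at 0.15 to 0.765 TPM in the 5 PTS2 mice, and was listed at 0 in all 3 PTS3 mice. PTS1 did not overlap with any other group. It exceeded PTS2 by 5.68 log2 units (SE 0.34, adjusted p = 3.66e-18) and the next highest group, DTL1, by 3.96 (SE 0.38, adjusted p = 8.19e-11). An exact 0 in such a table can be a failed estimate, so no size is printed for a difference from a group listed at 0 in every mouse, and calls against it are counted only.

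The DTL1 level of Cyp27b1 was uneven, at 0.41, 3.17 and 16.0 TPM in mice 1, 3 and 5. One mouse stood above the other 2, yet below every PTS1 mouse. Without it the DTL1 over DTL2 difference, 1.93 (SE 0.38, adjusted p = 8.11e-05), was 0.99, just under the limit of 1, with an adjusted p of 0.00474. DTL1 mouse 1 lay within the DTL2 range of 0.055 to 0.49 TPM. The SE comes from 1 spread shared by all 15 groups, not from the uneven DTL1 mice alone. Slc5a2, the PTS1 glucose cotransporter, was at 14.6, 8.38 and 20.7 TPM in DTL1 mice 1, 3 and 5, against 2473 to 3141 TPM in PTS1. Cyp24a1 was lowest in DTL1 mouse 5, at 0.44 TPM. Receptor genes of the odorant and vomeronasal families at 1 TPM or more numbered 704 to 861 in DTL1 mice. The part of either in the Cyp27b1 level was not tested. Outside PTS1 and DTL1 no mouse was above 1.56 TPM, the ATL mouse 4.

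Cyp24a1 varied more between mice. PTS1 mice were at 174, 28.2 and 45.1 TPM, and PTS2 mice at 2.33, 1.12, 0.735, 4.51 and 2.69 TPM. PTS1 mouse 1 stood well above the others, and the lowest PTS1 mouse was still above every PTS2 mouse. The difference was 4.40 log2 units (SE 0.42, adjusted p = 8.03e-12), and PTS2 was also the next highest group (adjusted p = 6.27e-10 for the highest-group call). That SE comes from 1 spread shared by all groups, many of them near 0, and not from the uneven PTS1 mice alone. PTS3 was listed at 0 in all 3 mice. Its difference from PTS2 was called (adjusted p = 0.00659), but not with a pseudocount of 5 (adjusted p = 0.28). In all groups outside PTS1 the highest mouse was at 5.90 TPM, in the ATL.

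The balance of the 2 enzymes in PTS1 differed between mice. Cyp24a1 over Cyp27b1 was 2.21, 0.485 and 0.558 in mice 1, 2 and 3, a mean of 1.09 ± 0.978 (SD, n = 3). Without mouse 1 it was 0.522, and without mouse 2 it was 1.39. So 1 mouse had more transcript of the inactivating enzyme and 2 had more of the activating one, at Cyp27b1 levels that differed less, from 58.2 to 80.7 TPM. Over the 15 group means the 2 genes correlated with Pearson r 0.95 on the log2 scale and Spearman rho 0.89. Vdr correlated with Cyp27b1 and Cyp24a1 at Pearson r 0.01 and -0.03, and at Spearman rho -0.41 and -0.24.

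**Figure D3:**
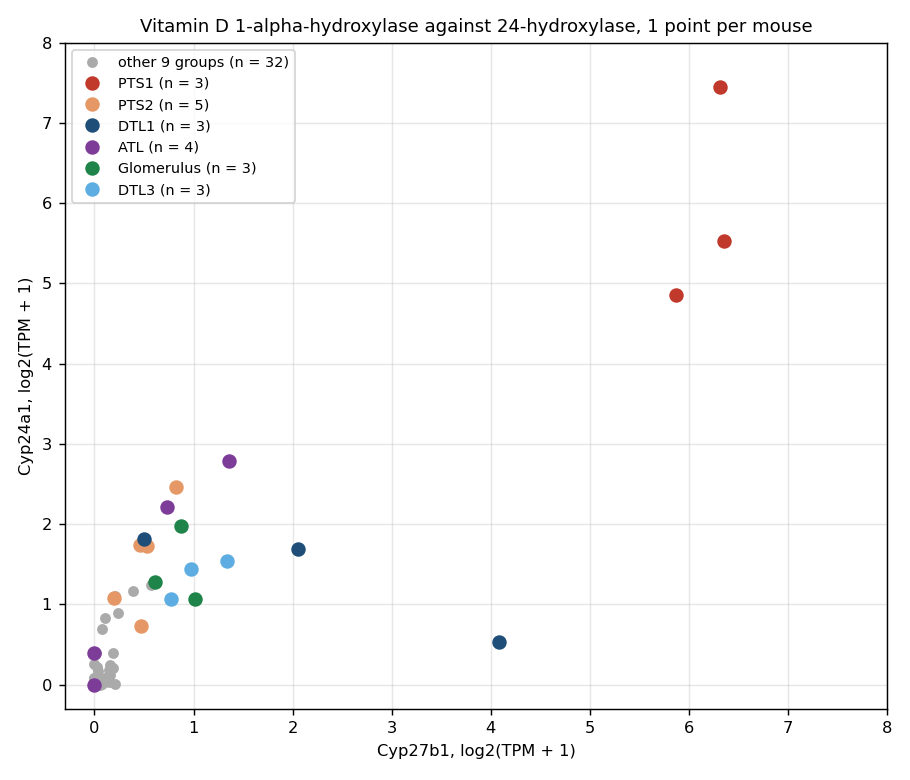
Cyp27b1 (x axis) against Cyp24a1 (y axis), both as log2(TPM + 1), with 1 point for each of the 53 mice and colour for 6 groups. The 3 PTS1 mice stand alone at the upper right, with Cyp24a1 at 28.2 to 174 TPM, and DTL1 mouse 5 lies at 16.0 TPM of Cyp27b1 with 0.44 TPM of Cyp24a1.

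Among the genes that supply or partner the vitamin D system, Gc, the vitamin D binding protein, shared the PTS1 pattern at 279 ± 86.8 TPM in PTS1 (n = 3) against 0.605 ± 0.290 in PTS2 (n = 5), a difference of 7.42 log2 units (SE 0.24, adjusted p = 1.53e-27). Rxrg, a partner of Vdr, was low but also highest in PTS1, at 3.20 ± 0.439 TPM, whereas the partner Rxra was at 33.6 ± 6.31 in PTS1 and 28.0 ± 3.01 in PTS2, and lower in PTS3 at 9.86 ± 1.18. The uptake receptor Lrp2, megalin, was at 107 ± 7.54 TPM in PTS1 and 82.9 ± 6.48 in PTS2 without the PTS1 peak of the enzymes. Cyp2r1, the main 25-hydroxylase of liver, did not exceed a group mean of 3.65 TPM. All 11 genes of this list passed the filter, and Gc and Rxrg were the 2 with 1 highest group.

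Vdr itself was not a PTS1 gene. The DCT mice were at 416, 543 and 463 TPM, the PTS2 mice at 168, 133, 134, 174 and 141 TPM, and the CNT mice at 125, 160 and 135 TPM. DCT mice stood above all others, and PTS2 and CNT overlapped. The DCT exceeded PTS2 by 1.65 log2 units (SE 0.30, adjusted p = 0.00154), a call that a pseudocount of 0.1 removed (difference 1.66, adjusted p = 1). The CTAL was at 96.9 ± 10.3 TPM (n = 5), PTS3 at 71.9 ± 7.04, PTS1 at 62.9 ± 11.6 (n = 3 each), the CCD at 52.5 ± 7.88 (n = 5) and the glomerulus at 35.7 ± 0.715 (n = 3). From PTS2 down to the glomerulus no step passed, and in the thin limbs, the MTAL, the OMCD and the IMCD every mouse was at or below 19.7 TPM.

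Vdr was thus lower in PTS1, where the vitamin D enzymes were highest, than in PTS2, by 1.26 log2 units (SE 0.30, adjusted p = 0.0013), with no overlap. Under a pseudocount of 0.1 the adjusted p was 0.0606, and under quantile normalization the difference was 0.77, in the same direction but under the limit. PTS2 over PTS3 was 1.05 (SE 0.30, adjusted p = 0.0119), just over the limit, and did not hold without PTS2 mouse 4, where it was 0.996, or without PTS3 mouse 2, where it was 0.989 with an adjusted p of 0.0668. It was 0.90 after median ratio rescaling and 0.65 with quantile normalization, and with a pseudocount of 0.1 the adjusted p was 0.251. Distally Vdr went with Kl: it was higher in CTAL than in MTAL by 2.85, higher in DCT than in CTAL by 2.27, and lower in CNT than in DCT by 1.75 (SE 0.30 to 0.34). Across the 15 group means Vdr and Kl correlated at r 0.86, the second highest of the 21 pairs after the 2 enzymes, and Vdr and Pth1r at 0.77. These are descriptions over groups prepared alike.

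Casr was a gene of the thick limb and beyond. CTAL mice were at 244, 209, 231, 216 and 224 TPM, above every mouse of any other group. Then came CCD at 52.8 ± 4.21 TPM (n = 5), CNT at 50.1 ± 0.414, DCT at 44.1 ± 8.87 and MTAL at 40.3 ± 8.60 (n = 3 each), which followed each other without a step that passed. The CTAL exceeded the CCD by 2.08 log2 units (SE 0.15, adjusted p = 4.19e-12). The next edge was wide: MTAL over DTL1, the sixth in order at 3.21 ± 1.52 TPM, was 3.33 (SE 0.19). In the proximal tubule Casr was near 0, with PTS1 mice at 0.14 to 0.23 TPM, PTS2 mice at 0.025 to 0.065 TPM and PTS3 mice at 0.005, 0 and 0.

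The thick limb divided by cortex and medulla for this receptor. MTAL mice were at 43.4, 46.9 and 30.6 TPM, all below the CTAL mice, a difference of 2.48 log2 units (SE 0.17, adjusted p = 6.52e-15). From CCD to OMCD Casr was lower by 4.01 (SE 0.16, adjusted p = 6.19e-24), with OMCD mice at 1.57, 2.10, 3.27 and 2.89 TPM. Cldn16, a claudin of the paracellular calcium and magnesium path, was at 482 ± 23.8 TPM in the CTAL and 53.4 ± 40.0 in the MTAL, and it too was lower in the MTAL (by 3.47, SE 0.37, adjusted p = 1.34e-09). Its level in the ATL was 570 ± 193 TPM (n = 4), where Casr was at 0.38 ± 0.254. Cldn14, which Casr is known to control, was at 4.97 ± 6.05 TPM in the CTAL, with a spread above its mean, and listed at 0 in the MTAL.

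Between neighbours along the nephron, 55 of the 105 differences of the 7 genes passed, at adjusted p under 0.05 and at least 1 log2 unit, where 19.8% of the differences of all genes tested did over the same 15 pairs. The share of all genes called ran from 1.12% to 65.5% by pair, so each count is given beside its own share. From MTAL to CTAL, where 3.15% of all genes tested were called, 4 of the 7 were called, and Vdr, Pth1r, Casr and Kl were all higher in the CTAL. Of the 45 tested genes of the 5 pathway lists, 11 were called at this edge, all higher in the CTAL, among them Fgfr2, Fgfr3, Fgfr4 and Cldn16. Most calls over all genes had that direction too, with 18.7% of them higher in the MTAL. The median difference of the 7 genes, MTAL minus CTAL, was -2.48, against -0.01 over all genes tested. From CTAL to DCT (4.35% called) 3 were called, with Casr lower and Vdr and Kl higher in the DCT, and from DCT to CNT (5.22%) and from CNT to CCD (1.12%) the same 3, Vdr, Pth1r and Kl, were lower in the more distal group each time. A pseudocount of 0.1 took Vdr out of both of the last edges (adjusted p = 0.0503 and 0.352).

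In the collecting duct 4 of 7 were lower in OMCD than in CCD (12.1% of all genes called), namely Vdr, Pth1r, Casr and Kl, and 3 of 7, Vdr, Casr and Kl, were lower in IMCD than in OMCD (18.6%). As deposited, with a pseudocount of 1, none was called higher in the deeper group. With a pseudocount of 0.1 Cyp24a1 was called higher in OMCD than in CCD (-2.46 for CCD minus OMCD, adjusted p = 0.004). Over all genes that setting raised the calls between CCD and OMCD from 4095 to 11271, with a median of -0.75. That setting also called Pth1r higher in OMCD than in IMCD, by 2.22. OMCD mice had 69 to 239 odorant and vomeronasal receptor genes at 1 TPM or more, against 1 in each CCD mouse. Their part in the Cyp24a1 level was not tested. With a pseudocount of 5, Pth1r from CCD to OMCD was 0.66 and Casr from OMCD to IMCD 0.54, both under the limit. Along the proximal tubule 5 of 7 were called between PTS1 and PTS2 (9.57%), with Cyp27b1 and Cyp24a1 higher in PTS1 and Vdr, Pth1r and Fgfr1 higher in PTS2. Between PTS2 and PTS3 (4.70%) 3 of 7, Vdr, Cyp24a1 and Kl, were higher in PTS2, and 8 of the 45 pathway genes were also called, each higher in PTS2. Over all genes 83.9% of the calls at this edge were higher in PTS2. Fgfr1, at 0.97 for PTS2 minus PTS3, missed the limit and passed without PTS2 mouse 5 (1.04) or without PTS3 mouse 1 (1.14). It also passed with a pseudocount of 0.1 (1.01, adjusted p = 0.000275) and with array quality weights (1.01, adjusted p = 1.79e-08). Cyp27b1 was called higher in PTS2 than in PTS3 with a pseudocount of 0.1 (adjusted p = 0.0179) and under quantile normalization (adjusted p = 0.00256). Fgfr1 was higher in PTS2 than in PTS1 by 1.65 (SE 0.19, adjusted p = 1.22e-09), with PTS1 mice at 8.46, 7.93 and 12.1 TPM.

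**Figure D4:**
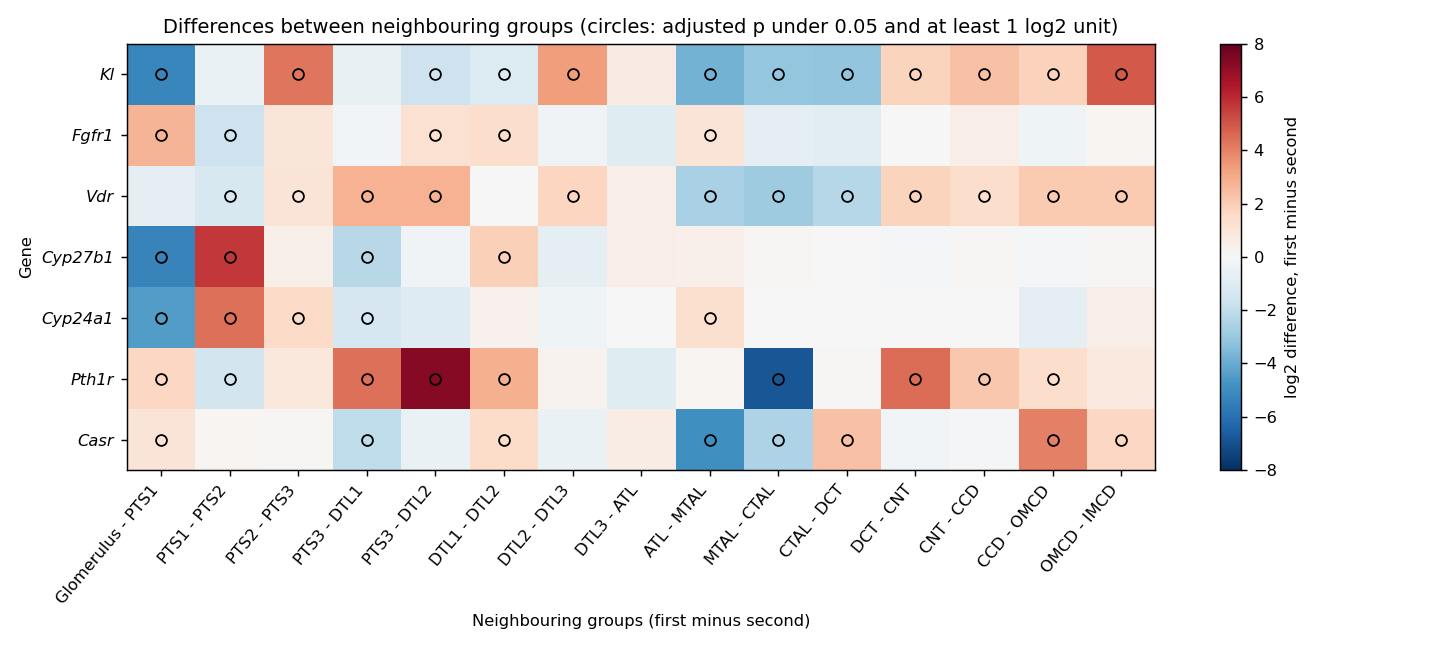
Log2 differences of the 7 genes (y axis) between neighbouring groups in nephron order (x axis, first group minus second), as colour from -8 to 8; circles mark the 55 of 105 differences that passed. Between MTAL and CTAL 4 of the 7 genes carry a circle, and between DTL3 and ATL none does.

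The edges next to the glomerulus and the thin limbs had many more calls over all genes, and the counts of the 7 genes have to be read against that. From glomerulus to PTS1 6 of 7 were called (51.9% of all genes), with Pth1r, Casr and Fgfr1 higher in the glomerulus and Cyp27b1, Cyp24a1 and Kl higher in PTS1. Vdr, the gene not called, was at -0.77 for glomerulus minus PTS1, and became a call higher in PTS1 after median ratio rescaling (-2.03, adjusted p = 7.46e-07) and quantile normalization (-1.76, adjusted p = 1.37e-08). Casr passed there by 1.03 only, between levels of at most 1.85 TPM, and the call was easily lost. It was 0.91 without glomerulus mouse 1, 0.90 with array quality weights, 0.60 after median ratio rescaling, 0.31 with a pseudocount of 5, and 0.04 with quantile normalization (adjusted p = 0.927). From PTS3, 5 of 7 were called against DTL1 (65.5%) and 4 of 7 against DTL2 (40.0%). Vdr and Pth1r were higher in PTS3 in both, by 2.80 and 4.39 over DTL1 (SE 0.34 and 0.32). Cyp27b1, Cyp24a1 and Casr were higher in DTL1, and all 3 calls were lost under quantile normalization and with a pseudocount of 5. Casr was at 1.96, 2.78 and 4.91 TPM in the DTL1 mice, called with an adjusted p of 3.05e-12. Its difference, PTS3 minus DTL1, was -0.15 under quantile normalization (adjusted p = 0.505) and -0.70 with a pseudocount of 5. The thick limb marker Umod averaged 254 TPM in DTL1, against 0.587 in PTS3 and 19.9 in DTL2. The part of thick limb transcript in the Casr level was not tested. For Cyp24a1 the adjusted p was 0.717 under quantile normalization, 0.166 with a pseudocount of 5, 0.211 with array quality weights and 0.0509 without DTL1 mouse 1. Against DTL2, Fgfr1 was higher and Kl lower in PTS3, and Fgfr1 was at 0.92 without DTL2 mouse 1 and 0.86 with a pseudocount of 5. The median of all genes was -1.33 from PTS3 to DTL1 and -0.71 from PTS3 to DTL2, and after median ratio rescaling the Kl difference to DTL2, -1.66 as deposited, was -0.51 with an adjusted p of 0.216, and -0.48 with quantile normalization (adjusted p = 0.312).

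Between the thin limbs, 5 of 7 were called from DTL1 to DTL2 (28.2%): Cyp27b1, Pth1r, Casr and Fgfr1 were higher in DTL1 and Kl was higher in DTL2. Casr, called with an adjusted p of 4.18e-08, missed the limit with quantile normalization (0.30, adjusted p = 0.211) and with a pseudocount of 5 (0.58). Fgfr1, at 1.42 (SE 0.21), was 0.99 with quantile normalization, and Cyp27b1 was 0.90 with a pseudocount of 5. Kl was called by 1.07 only (SE 0.36, adjusted p = 0.0131). It was 0.97 without DTL1 mouse 3, 0.85 without DTL1 mouse 5 and 0.97 without DTL2 mouse 2, in the same direction, and 0.89 with a pseudocount of 5. The adjusted p was 0.0971 with a pseudocount of 0.1 and 0.332 with array quality weights. From DTL2 to DTL3 (9.58%) Vdr and Kl were lower in DTL3, Kl by 3.32 (SE 0.36), and Vdr by 1.74 (SE 0.34), a call lost with array quality weights (adjusted p = 0.087). Calls gained in the thin limbs included Vdr, called higher in DTL2 than in DTL1 under quantile normalization (by 1.12), and Casr, called higher in DTL2 than in PTS3 (by 2.26) and in DTL3 than in DTL2 (by 1.22) with a pseudocount of 0.1. Cyp24a1, not called between PTS3 and DTL2 (adjusted p = 0.0597), was called higher in DTL2 with a pseudocount of 0.1 (adjusted p = 0.000522), with the filter at 5 TPM (adjusted p = 0.0485), with TPM averaged before the log (adjusted p = 0.0469), with all samples as independent (adjusted p = 0.00175) and without ATL mice 4 and 6 (adjusted p = 0.0141). From DTL3 to ATL (14.6%) limma called 0 of 7, although 3 had an unadjusted p under 0.05. These 3 also passed after adjustment and missed only the limit of 1 log2 unit: for DTL3 minus ATL, Pth1r was at -0.98 (adjusted p = 0.0113), Fgfr1 at -0.99 (adjusted p = 0.00011) and Casr at 0.59 (adjusted p = 0.00972). This count changed with the setting and with single mice. With a pseudocount of 0.1, 5 of 7 were called, namely Vdr (1.43), Casr (1.46) and Kl (1.39) higher in DTL3 and Pth1r (-1.29) and Fgfr1 (-1.07) higher in the ATL. With array quality weights 4 were called, with Vdr (1.53), Cyp27b1 (1.07) and Kl (1.55) higher in DTL3 and Fgfr1 (-1.22) higher in the ATL. Calls over all genes rose from 4948 to 9246 and 8008 under these settings. After median ratio rescaling and after quantile normalization Pth1r (-1.12 and -1.28) and Fgfr1 (-1.24 and -1.38) were called. Pth1r passed without DTL3 mouse 1 or 3 or ATL mouse 2 or 4 (-1.05 to -1.20), Fgfr1 without DTL3 mouse 2 or ATL mouse 3 or 4 (-1.04 to -1.31), and Vdr without ATL mouse 4 (1.02).

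The ATL mice fell apart in their makeup. Odorant and vomeronasal receptor genes at 1 TPM or more ranged from 17 to 659 per ATL mouse, with mice 4 and 6 the ones that carried many. Vdr was at 0.32, 0, 5.25 and 2.03 TPM and Kl at 0.18, 0.11, 2.24 and 2.69 TPM in mice 2, 3, 4 and 6, so mice 4 and 6 were the higher ones for both. Their part in these levels was not tested. Without mice 4 and 6, 4 of the 7 genes were called between DTL3 and ATL, all higher in DTL3, where 31.9% of all genes tested were called, up from 14.6%. Vdr was higher by 1.49 (adjusted p = 4.82e-06), Kl by 1.43 (adjusted p = 0.000542) and Cyp24a1 by 1.16 (adjusted p = 0.0157), and Cyp27b1 was listed at 0 in both remaining ATL mice. The median of all genes moved from 0.28 to 0.61 at the same time. Without mice 4 and 6, DTL3 mice with many receptor genes were compared with ATL mice that had few. The part of that difference in these calls was not tested. From ATL to MTAL (28.1%) 5 of 7 were called, with Vdr, Casr and Kl higher in the MTAL and Cyp24a1 and Fgfr1 higher in the ATL. Casr was higher in the MTAL by 4.89 (SE 0.18, adjusted p = 9.07e-26). The Cyp24a1 call, 1.29, did not hold without ATL mouse 4 (0.81, adjusted p = 0.119), mouse 6 (1.01, adjusted p = 0.0743) or both (0.14, adjusted p = 1), with quantile normalization (0.35), with a pseudocount of 5 (0.49) or with array quality weights (0.30). Fgfr1, at 1.06, was just below the limit without mouse 2 (adjusted p = 0.000121) and 0.99 without mouse 6. It was 0.67 after median ratio rescaling, 0.80 with a pseudocount of 5 and 0.43 with quantile normalization (adjusted p = 0.107).

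Of the 16 listed transport genes that these hormones act on, 9 were called between CTAL and DCT (4.35% of all genes tested), 8 of them higher in the DCT, with a median of -0.96 for CTAL minus DCT against 0.01 over all genes tested. Calb1, the calcium-buffering protein calbindin, was at 7258 ± 1923 TPM in the DCT and 1386 ± 337 in the CNT (n = 3 each), and 0.341 ± 0.233 in the CTAL (n = 5). Slc8a1, the sodium calcium exchanger, was at 173 ± 34.6, 53.9 ± 18.7 and 0.130 ± 0.0387 TPM in the same order. The calcium channel Trpv5 was at 156 ± 29.0 in the DCT and 107 ± 26.1 in the CNT, and the magnesium channel Trpm6 at 69.5 ± 6.34 TPM in the DCT and 1.75 ± 0.264 in the CNT. Calb1, Slc8a1 and Trpm6 had their 1 highest group in the DCT, as Kl and Vdr did. The phosphate cotransporter Slc34a3 had it in PTS1, at 363 ± 49.0 TPM, as the vitamin D enzymes did. Atp2b1, a calcium pump, had it in the glomerulus, and Slc34a2, another phosphate cotransporter, in DTL3, at 131 ± 32.1 TPM. Slc34a1 had its highest mean in PTS1, and Slc9a3r1 and Pdzk1, scaffolds of the proximal phosphate cotransporters, in PTS2, none by a margin that passed.

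Other genes whose group means ran most like each of the 7 were taken from 11988 genes, as Pearson's r of mean log2(TPM + 1) over the 15 groups. For Kl these were Mthfd1, Immt and Abhd17c (r 0.91, 0.91 and 0.91), and for Vdr Ccs, Mpi and Hacd1 (0.91, 0.90 and 0.89). Mthfd1, at 386 ± 10.4 TPM, Immt and Mpi were highest in the DCT. Abhd17c was instead highest in the CTAL, Ccs in PTS3 and Hacd1 in the CCD. For Cyp27b1 they included Slc5a2 and Prodh2 (0.98 and 0.97), and for Cyp24a1 AW822252 and Fam163a (0.99 and 0.97), all 4 highest in PTS1. For Casr they were Slc16a5, Kcnj10 and AW209491 (0.97, 0.94 and 0.94), and Slc16a5, like Casr, was highest in the CTAL, at 325 ± 54.2 TPM (n = 5). Kcnj10 was highest in the DCT and AW209491 in the MTAL. Pth1r had weaker matches in Ces2e, Sardh and Mgam (0.86, 0.83 and 0.83), as did Fgfr1 in P2rx4, Pcdh1 and Fam161a (0.86, 0.86 and 0.80). The groups share their library preparation, and the correlations are descriptions.

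Over all 7 genes, 20 of the 98 steps between groups next to each other in a gene's own order passed at adjusted p under 0.05, where 36.6% of all genes passed over the same pairs. Kl had 6 of 14, Casr 4, Pth1r and Vdr 3 each, Cyp27b1 2, and Cyp24a1 and Fgfr1 1 each. Since the order was taken from the same values, these counts describe the profiles. At 10 TPM or more in a mouse, pieces of 1 mouse mostly differed little. The median ratio of the highest to the lowest piece was 1.11 to 1.22 for each gene, from 2 mice each for Cyp27b1 and Cyp24a1. The largest ratio was 2.38, for Fgfr1 in IMCD mouse 1. Below 10 TPM some pieces lay further apart, as for Pth1r in DTL2 mouse 1 (1.34 and 13.1 TPM) and MTAL mouse 2 (3.74 and 15.1 TPM).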

How the data were processed

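RNA was measured in 93 samples of glomeruli and tubule segments from 53 mice; 3 samples prepared as single cells were not analysed here. Per the labels' protocols, a SMARTer kit for ultra-low RNA input made the cDNA, and Nextera XT the libraries. The values are TPM per gene and sample, as the authors deposited them. STAR 2.5.4a and RSEM 1.3.0 are named in the submitters' processing notes; genome build and annotation are not given in the sources used here. TPM keeps no read depth, so depth per sample is unknown and no counting interval is given.

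Pieces of 1 mouse number and segment were averaged as log2(TPM + 1). One PTS2 column whose piece letter matched no sample title entered PTS2 as an unnumbered mouse. Genes with at least 1 TPM in at least 3 mice (33793) were fitted with limma 3.58.1 (lmFit, eBayes with trend) in R 4.3.3, all 15 groups sharing 1 spread, and p-values were adjusted by Benjamini-Hochberg over all of them. Differences between neighbours were called at adjusted p under 0.05 and 1 log2 unit; a highest group was called from the largest one-sided p of its 14 contrasts. On log2(TPM + 1) the change of low genes is understated. The script was tested on simulated data.

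The genes named are the 7, 49 genes of 5 pathway lists, and for each of the 7 the 3 genes most alike over group means. Some items under this rule are not reported here. Members and lists were chosen with earlier results of these data known. Settings tried in their place were a pseudocount of 0.1 or of 5, filtering at 5 TPM or not at all, median ratio rescaling, quantile normalization, other averaging of pieces, a block for mouse number, array quality weights, and leaving out each mouse or ATL mice 4 and 6. Separate mice are stated per segment, so p-values rest on the spread between mice, pooled over all 15 groups for each gene. For a gene near 0 in most groups, the pooled spread need not be that of the groups compared.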

Additional observations from a re-analysis of the deposited data

How the results depend on the processing

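Counts for single pairs of neighbours changed with the setting, most plainly from DTL3 to ATL. The totals of the 7 genes over all groups, pairs or steps kept within 1.5 times under every alternative run. All 7 differed among the groups in each, 4 to 6 had 1 highest group, 42 to 62 of the 105 differences between neighbours were called, and 19 to 29 of the 98 order steps passed. Leaving out each of the 53 mice in turn gave 7 to 7, 5 to 6, 53 to 58 and 18 to 23. The mean ratio of Cyp24a1 to Cyp27b1 in PTS1 ran from 0.522 to 1.39 without 1 mouse.

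Directions reversed in 4 cases, all under rescaling. Fgfr1 in the glomerulus minus PTS2 was -0.16 after median ratio rescaling. Fgfr1 in PTS3 minus DTL1, -0.21 as deposited, was 1.10 after that rescaling and 1.47 after quantile normalization, and Kl there, -0.59 as deposited, was 1.54 after quantile normalization. The median of all genes for PTS3 minus DTL1 moved from -1.33 to -0.81 and to -0.02, and the share of calls higher in PTS3 from 5.73% to 19.6% and 50.8%. For glomerulus minus PTS1 the share higher in the glomerulus moved from 90.7% to 61.8% and 47.3%. The cause was not tested.

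With the mouse number as a replicate block, the counts were 7, 6, 54 and 20. Vdr from PTS2 to PTS3 (0.80, adjusted p = 0.119), Cyp24a1 from ATL to MTAL (0.86, adjusted p = 0.145) and Fgfr1 from ATL to MTAL (0.93) were no longer called, and Cyp24a1 from PTS3 to DTL2 (adjusted p = 0.0459) and Kl from DTL3 to ATL (1.11) became called. No sign of pairing by number was seen in the residuals. Those of same-numbered mice of different groups correlated at a median of 0.000185 over 290 pairs, against 0.000366 over 968 pairs with different numbers. These medians alone cannot show whether same-numbered samples shared an animal.

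Depth is unknown in TPM, and no counting error is given for levels near 1 TPM or for genes listed at 0.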
